A study of Mus musculus with 2 samples.

Results

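The 10 genes described here encode the keratins of the epidermal basal layer (*Krt5*, *Krt14* and *Krt15*), those of the suprabasal layers (*Krt1*, *Krt10*, *Krt2*, *Krt77* and *Krt78*), and *Krt79* and *Krt80*, which are counted apart from both layers here. They were taken by gene symbol from the 32285 genes listed for both libraries, and their expression was compared between back skin and the preputial gland (PG), a paired gland whose secretory cells are sebocytes (SEB). The tissues came from wild type C57BL/6 male mice of 52 weeks of age, as 6 mm biopsies of back skin and as whole PG. Material of 3 mice was pooled for each tissue before single-cell RNA sequencing with a droplet 3′ kit, which gave 1 library per tissue. The labels name no treatment, and the strain and sex were the same in both. With pooled mice and 1 library per tissue there was no replicate, so no difference was tested and no p-value is given. The intervals in brackets are exact 95% intervals for counting error only.

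A cell barcode was kept when it held at least 500 genes, at least 1000 UMIs (unique molecular identifiers, 1 per captured mRNA molecule) and at most 10% mitochondrial UMIs. This left 8899 barcodes with 27407186 UMIs in skin and 4699 barcodes with 15270076 UMIs in PG, at medians of 2386 and 2729 UMIs per barcode, and no kept barcode sequence was shared. Mitochondrial content removed 232 barcodes in skin and 662 in PG. The lists of possible barcodes differed in length between the libraries (6794880 and 737280) although the labels name 1 kit, so library chemistry and tissue cannot be told apart. Levels are CPM, the UMIs of a gene summed over barcodes and divided by all UMIs of those barcodes, times 1000000. Because a 3′ library counts 1 tag per molecule, levels are compared between genes without scaling to transcript length.

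Keratins form the intermediate filaments of epithelial cells as obligate pairs of a type I and a type II chain. Basal keratinocytes of stratified epithelia pair KRT5 (type II) with KRT14 (type I), and when they leave the basal layer of the epidermis they switch to KRT1 (type II) and KRT10 (type I). KRT15 is a further type I chain of basal cells and a known marker of the hair follicle (HF) bulge, KRT2 and KRT77 are type II chains of suprabasal cells, and KRT79 is known from the cells that line the HF canal and the duct of the sebaceous gland (SG).

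All 10 genes lie on the minus strand in mm10. The 7 type II genes were annotated within 1 stretch of chromosome 15, from *Krt80* (101347444 to 101370162) through *Krt5* (101707070 to 101712898), *Krt2* (101810689 to 101818169), *Krt1* (101845426 to 101850794), *Krt77* (101858731 to 101869705) and *Krt79* (101929332 to 101940324) to *Krt78* (101946001 to 101954287). The type I genes were on chromosome 11, with *Krt10* at 99385254 to 99389364, *Krt15* at 100131758 to 100135928 and *Krt14* at 100203162 to 100207548. Of the 50-base stretches in the last 500 bases of the *Krt14* transcript, 9.53% also occur in *Krt16* or *Krt17*, so some of its UMIs are uncertain, while the other 9 genes shared none.

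The 100 bases before the transcription start are shown for a basal keratin, for 4 of the 5 suprabasal keratins, and for *Krt79*, the member with the smallest difference, so that the promoters can be read beside the levels that follow. They are RefSeq sequences of GRCm38.p6, 5′ to 3′ on the minus strand. Capitals mark the motif TATAAA, the motif GATAAA or the motif TATATA on the coding strand within 50 bases of the start, and these 3 motifs were chosen after the promoters had been read.
*Krt5*, chr15:101712906-101713005: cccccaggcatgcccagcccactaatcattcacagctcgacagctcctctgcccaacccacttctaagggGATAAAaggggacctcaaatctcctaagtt
*Krt10*, chr11:99389365-99389464: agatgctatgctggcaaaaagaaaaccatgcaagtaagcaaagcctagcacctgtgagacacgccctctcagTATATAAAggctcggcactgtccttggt
*Krt2*, chr15:101818170-101818269: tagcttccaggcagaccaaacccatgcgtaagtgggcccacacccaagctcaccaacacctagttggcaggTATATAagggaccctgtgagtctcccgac
*Krt77*, chr15:101869706-101869805: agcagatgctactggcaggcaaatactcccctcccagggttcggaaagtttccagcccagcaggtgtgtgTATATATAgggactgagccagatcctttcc
*Krt78*, chr15:101954288-101954387: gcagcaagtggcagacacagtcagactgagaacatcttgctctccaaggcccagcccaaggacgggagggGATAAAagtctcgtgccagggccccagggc
*Krt79*, chr15:101940325-101940424: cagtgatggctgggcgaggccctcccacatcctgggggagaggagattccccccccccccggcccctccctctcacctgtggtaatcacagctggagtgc

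The 5 basal and suprabasal keratins shown each carried a match, its first base 28 to 30 bases before the start, and in *Krt10* a TATATA and a TATAAA overlapped. The *Krt79* window held none of these letters in that stretch. The entry for *Krt14*, a basal keratin, also held none of the 3 motifs there. It is not shown because its start lies inside the annotated gene. Over 32851 RefSeq promoters, 4.57% held any of the 3 motifs on the coding strand in the same 50 bases and 6.01% held one on either strand. A match is a description of the letters and not a bound site.

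The basal keratins were abundant in both tissues and lower in PG. *Krt5* was at 1882 CPM (1866 to 1899) in skin and 719 CPM (706 to 733) in PG, which is 2.62-fold lower in PG. Its partner *Krt14* was at 3369 CPM (3347 to 3391) in skin and 1789 CPM (1768 to 1811) in PG, a difference of 1.88-fold. *Krt15* differed most of the 3, with 3857 CPM in skin and 608 CPM (596 to 620) in PG, or 6.34-fold lower. As a sum the basal keratins were at 9109 CPM in skin and 3117 CPM in PG, a log2 difference of −1.55. *Krt15* was thus the most abundant of the 3 in skin and the least abundant in PG.

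The suprabasal keratins were abundant in skin and near 0 in PG. *Krt10* was at 3559 CPM in skin and at 27.0 CPM (24.4 to 29.7, 412 UMIs) in PG, 132-fold lower. *Krt1*, its type II partner, was at 1221 CPM in skin and 12.8 CPM (11.1 to 14.8, 196 UMIs) in PG, 95.1-fold lower. *Krt77* was higher than *Krt1* in skin, at 1498 CPM from 41049 UMIs, and PG held 3 *Krt77* UMIs, a log2 difference of −12.90 (−15.17 to −11.35). *Krt78*, a further type II chain, had 1086 UMIs in skin (39.6 CPM) and 2 in PG, a log2 difference of −8.24 (−11.29 to −6.38). *Krt2*, which is known to be sparse in the hairy skin of the mouse, had 88 UMIs in skin (3.21 CPM) and none in PG, where the floor of 3 UMIs per library is 0.196 CPM. With the floor put in place of 0, *Krt2* was 16.3-fold lower in PG. The exact 95% interval of its log2 difference ended at −3.70. Summed, the 5 suprabasal keratins were at 6320 CPM in skin and 40.1 CPM in PG, 157-fold lower, against 2.92-fold for the basal keratins.

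*Krt79* and *Krt80* did not move together. *Krt79* was at 451 CPM in skin and 523 CPM in PG, a log2 difference of 0.21 (0.17 to 0.25) that turned to −0.26 when each barcode was weighted equally and to −0.05 when free RNA was taken off. *Krt80*, a type II chain found in many differentiating epithelia, was at 145 CPM in skin and 7.47 CPM (114 UMIs) in PG, 19.4-fold lower. Of all UMIs of the 10 genes, *Krt10* took 22.2% in skin and 0.732% in PG, *Krt14* took 21% and 48.5%, and *Krt79* took 2.82% and 14.2%. The 10 genes together were at 16025 CPM in skin and 3687 CPM in PG.

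**Figure D1:**
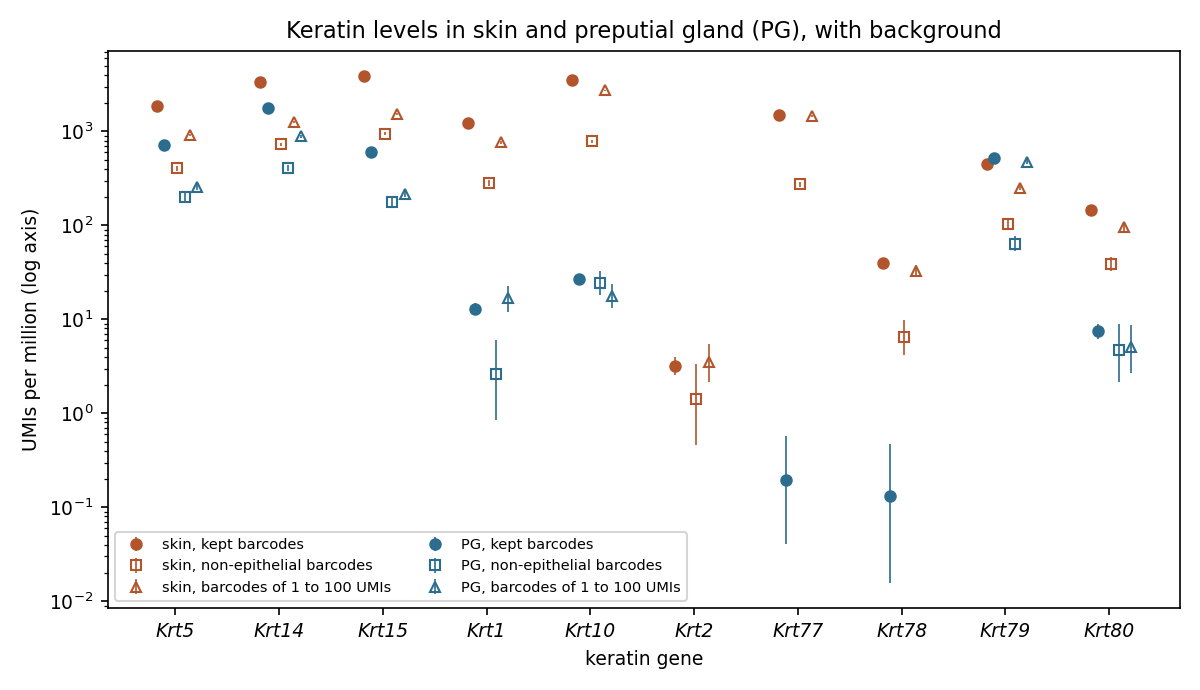
Level of each of the 10 keratins (CPM, log axis) in skin and PG, over all kept barcodes, over free RNA (1 to 100 UMIs) and over non-epithelial barcodes, with exact 95% Poisson intervals for counting error as bars. Krt14 and Krt79 lie closest between the tissues, while Krt1, Krt10, Krt77 and Krt78 lie far lower in PG.

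Of the 9 keratins with at least 10 CPM in either tissue, 7 were lower in PG by at least 2-fold, 0 were higher by that margin, and *Krt14* and *Krt79* were within it. *Krt2* was under 10 CPM in both and was not counted. Among all genes with such a level, 16% were lower in PG by at least 2-fold and 14% were higher. The median log2 difference was −4.28 over the 9 keratins and −0.07 over the 9141 genes. Where only keratinocyte-like barcodes were counted, the 9 keratins divided in the same numbers, with a median of −4.25, beside backgrounds of 15.8% lower and 16.6% higher.

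The barcodes were clustered without the 10 keratins, and clusters were named from markers of other genes by a rule written once the clusters were known. Keratinocyte-like clusters held 5860 barcodes in skin (65.9%) and 2467 in PG (52.5%), and non-epithelial clusters (fibroblast-like, immune-like and endothelial-like) held 1608 and 984. Within keratinocyte-like barcodes *Krt5* was at 2665 CPM in skin and 1093 CPM in PG, *Krt14* at 4820 and 2496 CPM, and *Krt15* at 5512 and 880 CPM. In the same barcodes *Krt10* was at 5173 CPM in skin and 31.5 CPM in PG, and *Krt1* at 1769 and 22.8 CPM. The log2 differences in these barcodes were −1.54 for the basal sum and −7.39 for the suprabasal sum. Within single classes they were of other sizes. In barcodes named basal-like from other markers the basal sum was at 23204 CPM in skin and 3714 CPM in PG (log2 difference −2.64), and the suprabasal sum at 1242 and 39.4 CPM (−4.98), where the skin value was below that of its non-epithelial barcodes, 1351 CPM. The basal-like classes were named within each library and are not matched. In their largest clusters the basal markers *Col17a1* and *Itga6* were at 2054 and 461 CPM in skin and 152 and 294 CPM in PG. A PG cluster not sorted further (n = 318) had a higher basal sum, 5823 CPM. In upper follicle-like barcodes the basal sum was higher in PG, 5175 against 3092 CPM (0.74), and the suprabasal sum lower, 89.6 against 12528 CPM (−7.13).

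Free RNA, the RNA outside intact cells that is captured with any barcode, was measured in barcodes with 1 to 100 UMIs. In skin these held the 10 keratins at 9065 CPM, with *Krt10* at 2732 and *Krt77* at 1457 CPM, and in PG at 1874 CPM, with *Krt14* at 885 and *Krt79* at 476 CPM. Keratin UMIs were also found in cells that should lack them. After each barcode was thinned to 1000 UMIs, a *Krt10* UMI was seen in 15.9% of the non-epithelial barcodes of skin and in 30% of all kept barcodes there. In PG the same shares were 2.54% and 2.49%, so *Krt10* was detected no more often over all kept barcodes than in non-epithelial ones. Its PG level was 27.0 CPM over all kept barcodes, 24.6 CPM in non-epithelial ones and 17.9 CPM in free RNA. Within the non-epithelial barcodes of PG it was at 39.2 CPM in fibroblast-like, 3.10 CPM in immune-like and 0 CPM in endothelial-like ones. The shares for *Krt14* were 14.8% of non-epithelial and 49.6% of all kept barcodes in skin, and 14.2% and 64.5% in PG. Without thinning *Krt14* was seen in 56% of skin and 78.8% of PG barcodes and *Krt10* in 42.8% and 8.34%. The non-epithelial barcodes were shallower, at medians of 1840 UMIs in skin and 1506 in PG.

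The few suprabasal keratin UMIs of PG were spread in different ways. The 412 *Krt10* UMIs of PG lay in 392 barcodes with no more than 2 in any of them. The 196 *Krt1* UMIs lay in 53 barcodes, of which 4 held 50%, and the highest single barcode held 41. In PG, 5 barcodes had at least 10 *Krt1* UMIs, and 4 of these were upper follicle-like. Together those 5 barcodes held 121 *Krt1* and 51 *Krt14* UMIs beside 2 of *Krt10* and 0 of *Krt77*, whereas the 1068 such barcodes of skin had *Krt10* at 15108 CPM and *Krt77* at 5538 CPM. The *Krt1* UMIs of these PG barcodes were thus counted beside *Krt14* and almost no *Krt10*.

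In skin the clusters named from other markers separated the basal from the suprabasal keratins. *Krt5* and *Krt14* were highest in the basal-like barcodes (n = 1896), at 4766 and 9174 CPM, and both were lower in the suprabasal-like barcodes (n = 1077), at 789 and 1247 CPM. *Krt10*, *Krt77* and *Krt1* were highest in the suprabasal-like barcodes, at 16862, 7403 and 5270 CPM, against 612, 91.3 and 531 CPM in the basal-like ones. On the log2 scale the suprabasal-like barcodes exceeded the basal-like ones by 6.81 for *Krt78*, 6.34 for *Krt77*, 4.78 for *Krt10*, 3.31 for *Krt1* and 2.28 for *Krt80*. *Krt2* was at 8.30 CPM in the suprabasal-like barcodes and did not differ beyond counting error from the basal-like ones, with a log2 difference of 0.64 (−0.10 to 1.39). Of the 8 keratins named here for a layer, 7 were highest in the barcodes of that layer, *Krt2* within counting error, and *Krt15* was not.

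*Krt15* was highest in the bulge-like barcodes of skin (n = 831), at 11417 CPM, against 9264 CPM in the basal-like ones. *Krt14* was at 1934 CPM in the bulge-like barcodes, so that *Krt15* gave 5.9 UMIs per *Krt14* UMI there and 1.01 in the basal-like barcodes of skin. The bulge-like clusters were unlike. The larger (n = 688) had *Krt15* at 13570 CPM and 6.76 UMIs per *Krt14* UMI. The smaller (n = 143) had *Krt15* at 3403 CPM, below the basal-like barcodes, and 2.04 UMIs per *Krt14* UMI. By class, *Krt79* was highest in the upper follicle-like barcodes (n = 525), at 4686 CPM, and next in the sebocyte-like ones (n = 75), at 389 CPM. Single clusters of other classes held as much or more. *Krt79* was at 588 CPM in a suprabasal-like cluster (n = 109) and 398 CPM in a cluster not sorted further (n = 646). The upper follicle-like barcodes of skin also held *Krt10* at 6978 CPM, *Krt77* at 3244 CPM and *Krt1* at 2222 CPM, but these came mostly from 1 of their 2 clusters (n = 198), led by *Sprr1a* and *Sprr1b*, which held 11805 of the *Krt10* UMIs against 2241 in the other (n = 327). Their *Krt14*, at 1265 CPM, did not differ beyond counting error from that of the suprabasal-like barcodes. The matrix-like barcodes (n = 1048) were low for the basal keratins, with *Krt14* at 252 CPM. *Krt77* in the basal-like barcodes was lower than in fibroblast-like barcodes, at 194 CPM, and is read as background.

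**Figure D2:**
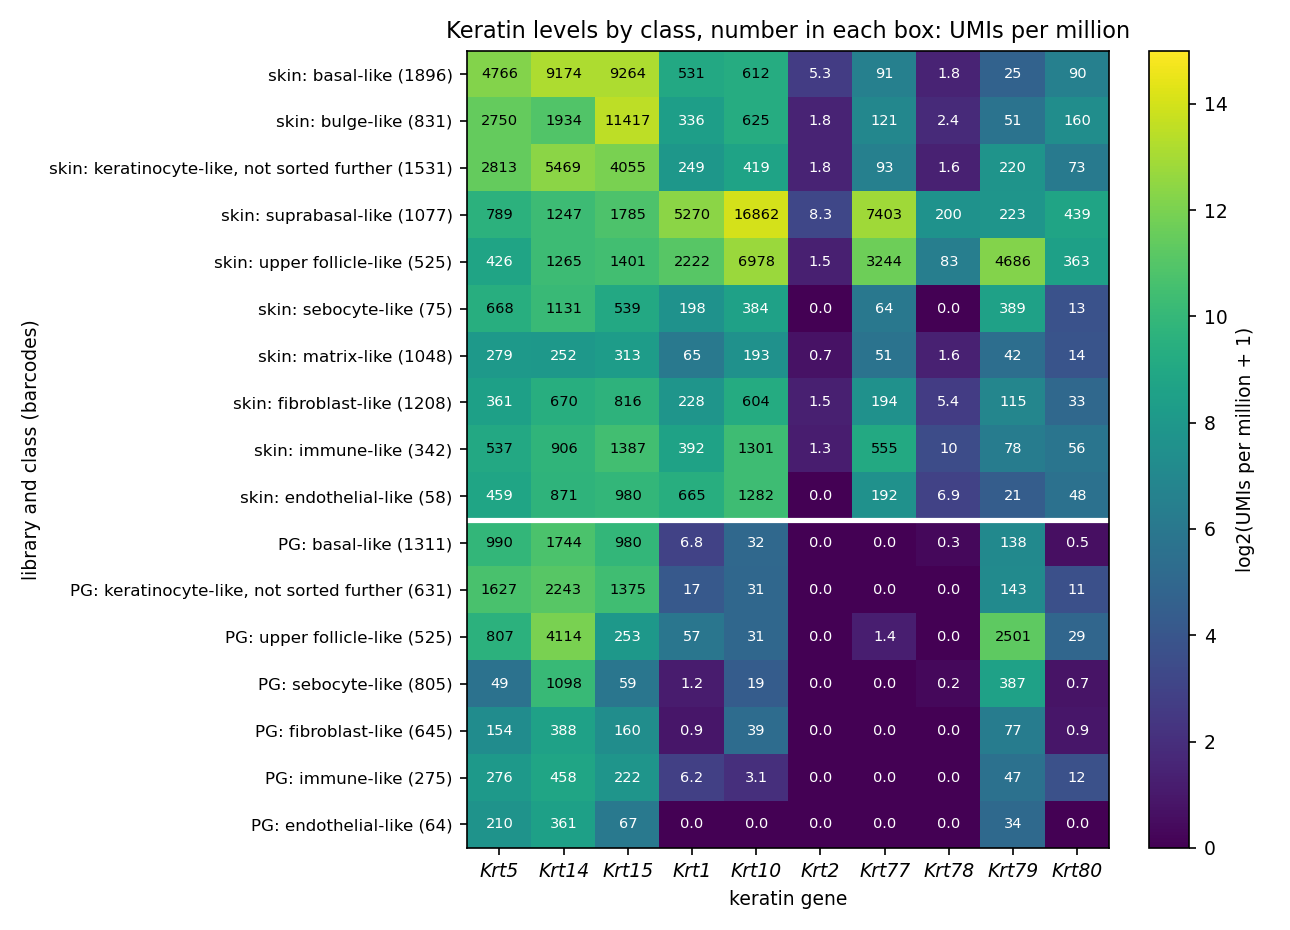
Heat map of the level of each keratin (CPM printed in each box, colour on a log2(CPM + 1) scale) in each named class of barcodes, skin beside PG. Basal keratins peak in the basal-like and bulge-like classes of skin and suprabasal keratins in its suprabasal-like class, while in PG Krt14 and Krt79 peak in the upper follicle-like class.

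The suprabasal keratins did not keep 1 ratio over the suprabasal-like clusters of skin. In the largest cluster (n = 615) *Krt1* was at 7864 CPM and *Krt10* at 15123 CPM, or 1.92 *Krt10* UMIs per *Krt1* UMI (1.88 to 1.96). In the cluster with loricrin at 25492 CPM and *Flg2* at 3369 CPM, genes of the cornified envelope (n = 109), *Krt1* was at 871 CPM and *Krt10* at 14118 CPM, or 16.2 per *Krt1* UMI (15.1 to 17.4). The remaining clusters lay between them, at 2.84 (n = 227) and 6.46 (n = 126). *Krt77* followed the same order, from 0.215 to 0.776 UMIs per *Krt10* UMI. *Krt77* reached its highest level, 17181 CPM, in the cluster of 126 barcodes, where loricrin was at 38.5 CPM. The order of the clusters in *Krt10* per *Krt1* was therefore also their order in *Krt77* per *Krt10*.

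**Figure D3:**
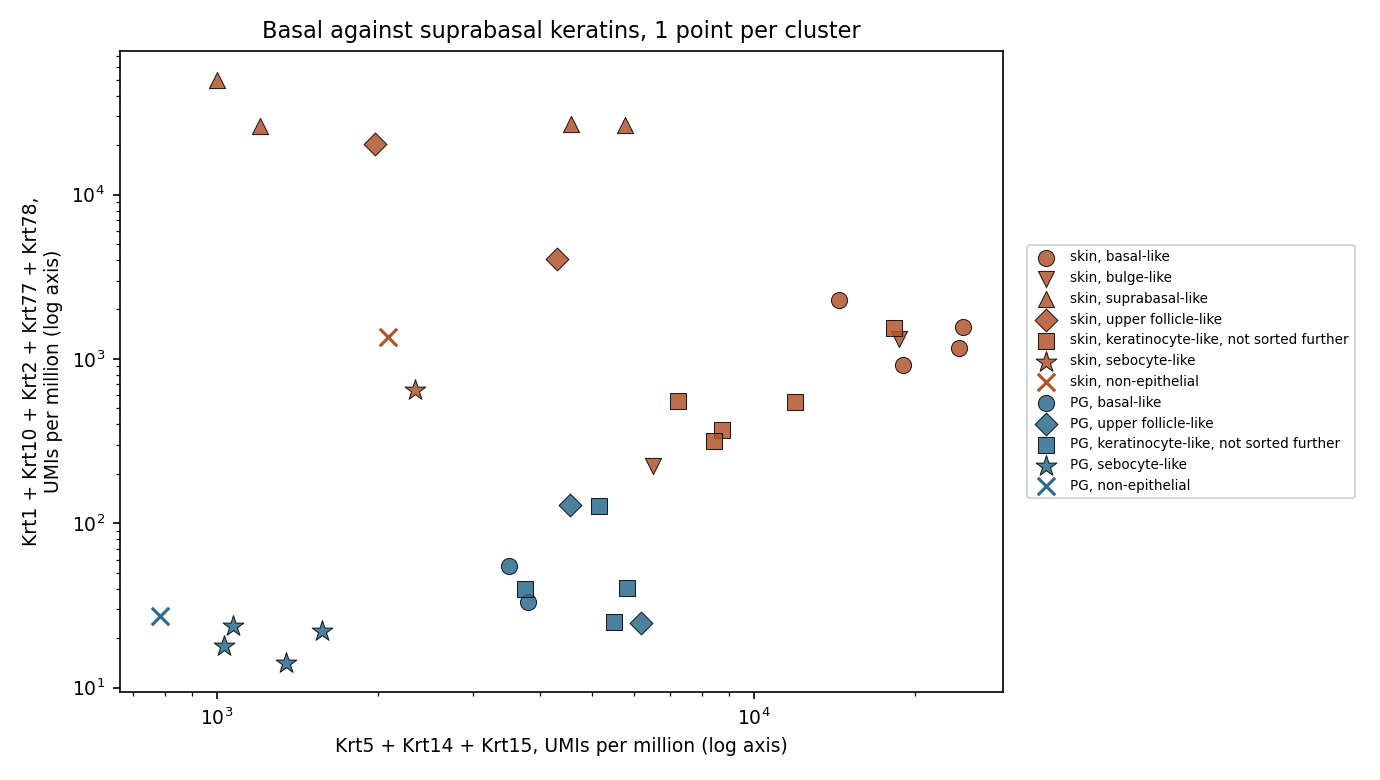
Basal keratin sum against suprabasal keratin sum (CPM, log axes) for each keratinocyte-like and sebocyte-like cluster, with colour for tissue, shape for class and a cross for the non-epithelial barcodes. The suprabasal-like clusters of skin lie highest on the suprabasal axis, and all PG clusters lie below those of skin on it.

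No PG cluster was named suprabasal-like by the rule used, and the suprabasal markers of PG other than keratins were divided. Of the 9 suprabasal markers, 9 reached 10 CPM in the keratinocyte-like barcodes of skin, with a summed level of 12488 CPM, and 5 did so in PG, with a sum of 4168 CPM. *Flg2* was at 0 in PG and *Lor* at 2.12 CPM against 1309 in skin. *Krtdap*, by contrast, was at 2326 CPM in PG and 4407 in skin. In the upper follicle-like barcodes alone, 7 of the 9 suprabasal markers reached 10 CPM in PG, with a sum of 12833 CPM. In those of skin 9 did so, with a sum of 17261 CPM. The lack of a suprabasal-like name in PG thus does not mean that all 9 markers were lacking. *Flg2* was also at 0 in the upper follicle-like barcodes of PG, and *Krtdap*, at 7453 CPM, made the largest part of their sum. The part of cell composition in the keratin levels was not tested.

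*Krt14* had another order of classes in PG than in skin. Its level was highest in the upper follicle-like barcodes of PG (n = 525), at 4114 CPM, then in the keratinocyte-like barcodes that were not sorted further (n = 631), at 2243 CPM, then in the basal-like ones (n = 1311), at 1744 CPM, and then in the sebocyte-like ones (n = 805), at 1098 CPM (1066 to 1130). Each of these neighbours differed beyond counting error. *Krt5* took the order not sorted further (1627 CPM), basal-like (990 CPM), upper follicle-like (807 CPM) and sebocyte-like (49.2 CPM). *Krt15* was at 1375 CPM in barcodes not sorted further, 980 CPM in basal-like, 253 CPM in upper follicle-like and 59.4 CPM in sebocyte-like barcodes. These orders cover named classes only and leave out 410 PG barcodes in unnamed clusters. The largest unnamed cluster (n = 302) had *Krt5* at 1839 CPM, *Krt14* at 1905 CPM and *Krt15* at 1862 CPM. Its *Krt5* and *Krt15* were thus above those of every class in these orders. *Krt79* was at 2501 CPM in upper follicle-like and 387 CPM in sebocyte-like barcodes, against 138 CPM in basal-like ones. The upper follicle-like level of *Krt79* was lower in PG than in skin, 2501 against 4686 CPM, while the upper follicle-like level of *Krt14* was higher in PG, 4114 against 1265 CPM.

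The upper follicle-like class rested on different clusters in the 2 tissues, so its values are given by cluster too. In PG a cluster of 268 barcodes had *Cst6*, a cystatin of the cornifying epithelium, at 90194 CPM and *Krtdap* at 10866 CPM, with *Krt14* at 4068 CPM, *Krt79* at 3443 CPM, *Krt5* at 426 CPM and *Krt10* at 35 CPM. The other PG cluster, of 257 barcodes, had *Krt14* at 4190 CPM, *Krt5* at 1431 CPM and *Krt79* at 960 CPM. In skin the cluster with the most *Cst6* (n = 327, 52473 CPM) had *Krt79* at 8486 CPM, *Krt10* at 2329 CPM, *Krt14* at 1545 CPM and *Krt1* at 653 CPM. The other skin cluster, of 198 barcodes, had *Krt10* at 11236 CPM, *Krt77* at 5221 CPM, *Krt1* at 3660 CPM, *Krt79* at 1205 CPM and *Krt14* at 1009 CPM. Both PG clusters held more *Krt14* than *Krt79* and both skin clusters more *Krt79* than *Krt14*, the latter with 5.49 and 1.19 *Krt79* UMIs per *Krt14* UMI. PG barcodes of this class had *Krtdap* at 7453 CPM and *Krt1* at 57.4 CPM, where skin barcodes of the class had 6236 and 2222 CPM. By cluster, *Krtdap* was at 10866 and 1869 CPM in PG and at 3508 and 8735 CPM in skin. Other suprabasal markers differed from it. *Sbsn* was lower in both PG clusters, at 1597 and 476 CPM against 4838 and 9261 CPM in skin. *Dmkn* was at 4970 and 2635 CPM in PG and at 1443 and 4214 CPM in skin.

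The ratio of *Krt14* to *Krt5* UMIs was also counted by class. The basal-like barcodes gave 1.92 *Krt14* UMIs per *Krt5* UMI in skin and 1.76 (1.69 to 1.83) in PG. The ratio in sebocyte-like barcodes was 22.3 (19.4 to 25.7) for PG and 1.69 (1.45 to 1.98) for skin, and single sebocyte-like clusters of PG ranged from 15.1 to 43.3. Upper follicle-like barcodes gave 2.97 in skin and 5.1 (4.84 to 5.37) in PG, and skin bulge-like barcodes gave 0.703. Free RNA of PG had a ratio of 3.46 and its non-epithelial barcodes 2.06. In skin the sebocyte-like *Krt5* and *Krt14*, at 668 and 1131 CPM, were below the free RNA there, at 914 and 1273 CPM. Both were above the non-epithelial barcodes of skin, at 404 and 731 CPM. Their ratio lay near that of the non-epithelial barcodes, 1.81, so the skin ratio is not shown to be one of sebocytes. In thinned sebocyte-like barcodes of the gland *Krt14* was seen in 63.2%, *Krt79* in 26.7%, *Krt5* in 5.34% and *Krt15* in 4.72%. The last 2 shares were below those of the non-epithelial barcodes of PG, 8.03% and 7.11%, and are not told apart from background. Those of *Krt14* and *Krt79* were above the non-epithelial shares of 14.2% and 3.76%. Over single sebocyte-like clusters of PG, *Krt15* ranged from 19.6 CPM (n = 234) to 139 CPM (n = 281), and the source of this range was not tested. With *Krt5* not told apart from background, the ratio of 22.3 describes the UMIs counted and its interval does not cover that background.

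**Figure D4:**
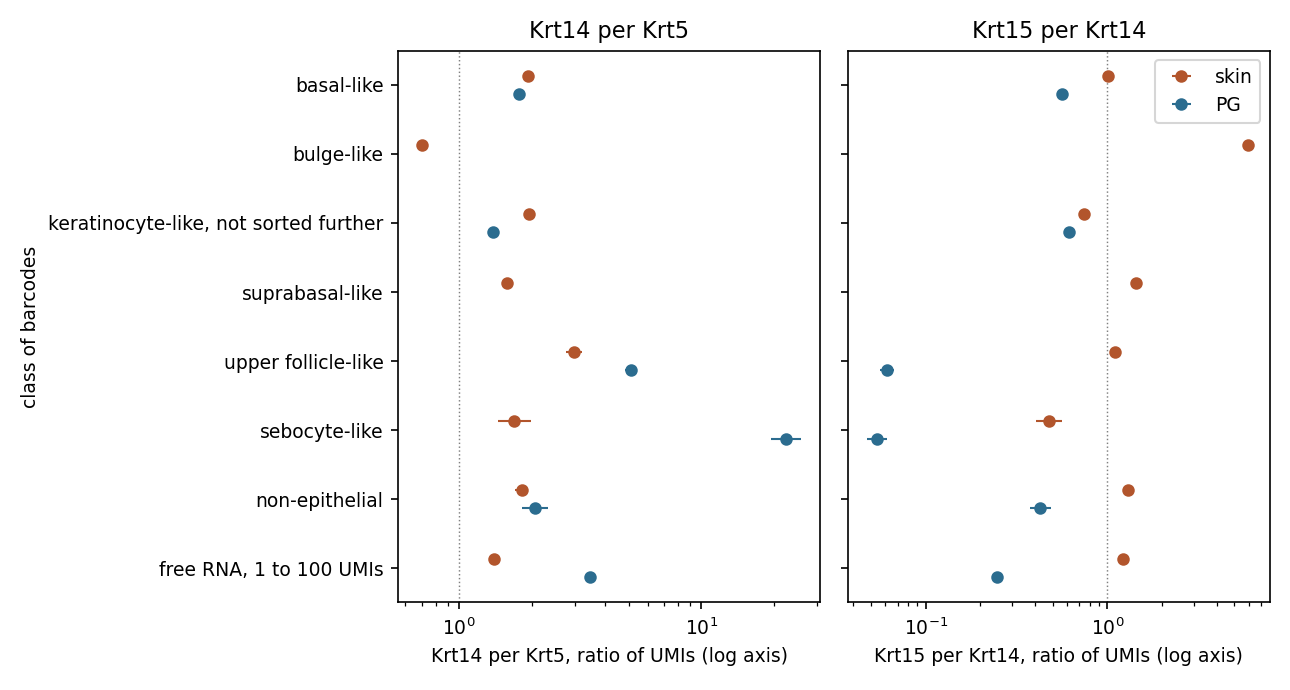
Krt14 UMIs per Krt5 UMI (left) and Krt15 UMIs per Krt14 UMI (right), on log axes, in each class of barcodes and in free RNA of skin and PG, with exact 95% binomial intervals for counting error as bars. The left-hand value of the sebocyte-like class of PG is 22.3, with Krt5 there not told apart from background, and its right-hand value is 0.0541.

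By class, *Krt80* was highest in the suprabasal-like barcodes of skin, at 439 CPM (420 to 460), then in the upper follicle-like ones, at 363 CPM (337 to 390). The bulge-like ones followed at 160 CPM (142 to 181), and these neighbours differed beyond counting error. The order did not hold for every cluster. Suprabasal-like clusters were at 281 CPM (n = 615), 332 CPM (n = 227), 468 CPM (n = 126) and 847 CPM (n = 109). Upper follicle-like clusters were at 343 CPM (n = 327) and 382 CPM (n = 198). The larger bulge-like cluster (n = 688) had *Krt80* at 197 CPM and the smaller (n = 143) at 22.8 CPM. In PG *Krt80* was highest in the upper follicle-like barcodes, at 29.4 CPM (22.6 to 37.6). That interval overlapped the one of the immune-like barcodes, at 12.4 CPM from 8 UMIs, which alone does not show equal levels. Against the basal-like barcodes of PG, at 0.505 CPM, the log2 difference was 5.86 (3.95 to 8.94). In PG sebocyte-like barcodes *Krt80* was at 0.710 CPM. *Krt78* was counted mostly in 2 classes of skin, with 200 CPM (186 to 213) in suprabasal-like and 83.0 CPM (70.9 to 96.5) in upper follicle-like barcodes. No other class held more than 10.2 CPM. Of the upper follicle-like *Krt78* UMIs, 157 lay in 1 cluster (n = 198, 149 CPM) and 10 in the other (n = 327, 10.4 CPM). *Krt10* in PG was at 39.2 CPM (28.6 to 52.5) in fibroblast-like and 32.3 CPM (26.9 to 38.4) in basal-like barcodes. Its levels in the PG keratinocyte-like classes did not differ from the fibroblast-like level beyond counting error. It was lower in the other non-epithelial classes of PG, at 3.10 CPM (2 UMIs) in immune-like and 0 CPM in endothelial-like barcodes.

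The keratins also differed in how far they were concentrated in few barcodes of skin. *Krt77* had 50% of its UMIs in 126 barcodes, *Krt79* in 96 and *Krt10* in 260, against 948 for *Krt15*. More than 1% of all UMIs came from *Krt15* in 1505 skin barcodes (16.9%), from *Krt10* in 926 (10.4%) and from *Krt14* in 883 (9.92%). The highest levels in a single skin barcode were 66270 CPM for *Krt77* and 57602 CPM for *Krt10*. In PG more than 1% came from *Krt14* in 14 barcodes, from *Krt15* in 8 and from *Krt79* in 8, and from none of the other keratins in any barcode. In PG, 103 of the 1482 barcodes with a *Krt79* UMI held 50% of them, beside 96 of 858 in skin.

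Within single barcodes, thinned to 1000 UMIs, the basal pair was often seen together over all kept barcodes. In skin, 79.0% of barcodes with *Krt5* also had *Krt14*, against 16.0% of those without, and 84.9% of barcodes with *Krt14* had *Krt5*. In PG the shares were 83.9%, 51.9% and 51.0%, so about as many *Krt14* barcodes of PG had *Krt5* as lacked it. These shares also count barcodes that are not keratinocyte-like. Within keratinocyte-like barcodes, Spearman's correlation of the thinned *Krt5* and *Krt14* UMIs was 0.61 in skin and 0.016 in PG. The suprabasal pair was seen together in skin, where 78.5% (76.6 to 80.4) of *Krt1* barcodes had *Krt10*, and in PG 1 of 21 did. *Krt10* was seen in 73.4% of *Krt77* barcodes and in 193 of 195 *Krt78* barcodes of skin.

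*Krt10* and *Krt14*, type I chains of different layers, were also seen in the same barcodes. Of 2666 skin barcodes with *Krt10*, 1144 (42.9%, 41.0 to 44.8) also had *Krt14*, against 52.5% of those without *Krt10*. In keratinocyte-like barcodes of skin these shares were 47.5% and 81.1%. Of suprabasal-like barcodes with *Krt10*, 22.9% (20.4 to 25.6) had *Krt14*, beside 93.6% in basal-like ones, where *Krt10*, at 612 CPM, was at the level of the fibroblast-like barcodes, 604 CPM. When 3 UMIs of each gene were asked for, the skin share over all kept barcodes was 17.6%. In PG, 78 of 117 *Krt10* barcodes (66.7%, 57.4 to 75.1) had *Krt14*, against 64.4% of those without *Krt10*, a difference within counting error.

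**Figure D5:**
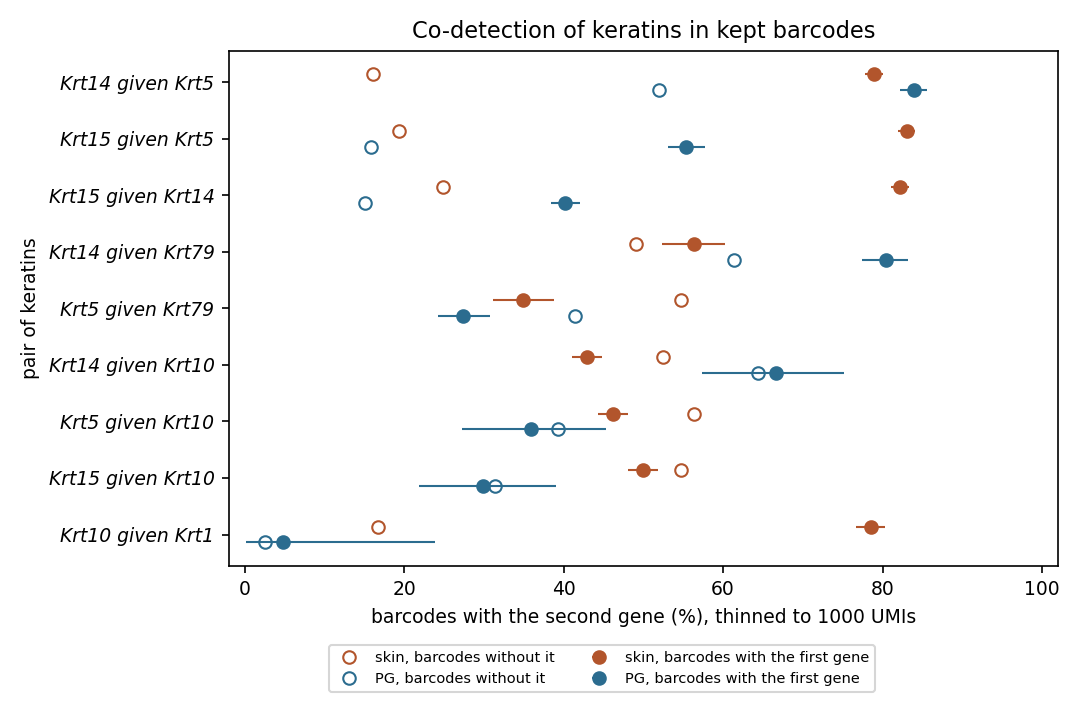
Share of barcodes (percent, thinned to 1000 UMIs) in which a second keratin was seen, in barcodes with the first (filled, with exact 95% binomial intervals as bars) and without it (open), for skin and PG. In skin the basal pair and the suprabasal pair are seen together, and in PG Krt1 barcodes rarely hold Krt10.

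Asking for at least 3 UMIs summed over the basal and over the suprabasal keratins gave the same division. Of suprabasal-like barcodes of skin, 67.7% passed for suprabasal keratins alone, 29.2% for both and 1.49% for basal keratins alone. Of basal-like barcodes of skin, 89.3% passed for basal keratins alone and 9.86% for both. The upper follicle-like barcodes of skin were mixed, with 37.9% suprabasal alone, 17.5% both and 23.2% basal alone. In PG no basal-like barcode passed for both, and of the upper follicle-like ones 78.3% passed for basal keratins alone and 0.762% for suprabasal keratins alone.

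Across the 63 clusters of both tissues, the keratins fell into groups by level, which is a description, since the clusters of a tissue share 1 library. On log2(CPM + 1), Pearson's r was 0.86 for *Krt5* with *Krt15*, 0.78 for *Krt5* with *Krt14*, 0.90 for *Krt1* with *Krt10* and 0.92 for *Krt10* with *Krt77*. *Krt79* had its highest r with *Krt14*, at 0.39. The genes whose levels over these clusters were most like the basal keratins were *Col17a1* for *Krt5* (r = 0.81) and for *Krt15* (r = 0.87), and *Itga6* for *Krt14* (r = 0.81), which encode parts of the hemidesmosome. *Krt1* was most like *Calm4* (r = 0.94), *Krt10* most like *Tmprss4* (r = 0.89), *Krt77* most like *Dsg1a* (r = 0.92), a desmosomal cadherin, *Krt78* most like *Skint5* (r = 0.85), *Krt80* most like *Pla2g2f* (r = 0.84) and *Krt79* most like *Defb6*, a defensin (r = 0.70). These r pool clusters of both tissues, and over the 38 skin clusters alone the order changed for some: *Krt77* had r = 0.73 with *Dsg1a* and 0.79 with *Oas1f*, *Krt10* 0.91 with *Tmprss4* and 0.94 with *Calm4*, and *Krt78* 0.82 with *Skint5* and 0.88 with *Gm94*.

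Genes that anchor keratin filaments and regulators of keratinocyte differentiation were lower in PG more often than higher. Of the listed genes of desmosomes and filament linkage, 11 had at least 10 CPM in either tissue. Of these, 0 were higher in PG by at least 2-fold and 5 were lower. Their median log2 difference was −0.93, beside 14% higher and 16% lower and a median of −0.07 over all genes. *Pkp2* was under 10 CPM in both and was not counted. It was higher in PG, at 1.39 CPM in skin and 5.70 CPM in PG, a log2 difference of 2.04 (1.47 to 2.63). *Perp* was at 1222 CPM in skin and 1015 CPM in PG, *Dsp* (desmoplakin) at 1102 and 758 CPM, and *Dsc3* at 417 and 160 CPM. Of 15 measured regulators of keratinocyte differentiation, 1 was higher and 9 were lower by at least 2-fold, with a median of −1.50, beside the same shares over all genes. *Klf4*, a transcription factor of the epidermal barrier, was at 459 CPM in skin and 53.4 CPM in PG, and *Klf5* at 223 and 28.3 CPM. *Cebpb* was the one higher by at least 2-fold, at 271 and 743 CPM. *Cebpa*, *Tfap2a*, *Tfap2c* and *Jag2* were higher in PG by less than 2-fold. In keratinocyte-like barcodes 5 of the 11 counted linkage genes were lower by at least 2-fold and 0 higher, with a median of −0.77, again without *Pkp2*. There 8 regulators were lower and 1 higher by that margin, with a median of −1.14. All genes there gave 15.8% lower, 16.6% higher and a median of 0.06.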

How the data were processed

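The deposited files hold counts: the authors counted UMIs per gene and barcode with Cell Ranger against mm10, as the submitters' processing notes name them, and the matrices were not filtered for cells. Barcodes were kept at 500 genes, 1000 UMIs and at most 10% mitochondrial UMIs. Summed UMIs gave CPM with exact Poisson intervals, and shares and ratios exact binomial intervals, at 95%. Cells are not replicates, and with 1 pooled library per tissue no test was made. Genes were called at 2-fold with at least 10 CPM in either tissue. Barcodes were thinned to 1000 UMIs for shares. Clusters came from Leiden clustering (leidenalg 0.10.2, scikit-learn 1.9.0) without the 10 keratins, and clusters were named from fixed marker lists, with at least 3 markers detected. Doublet scores flagged 634 barcodes in skin and 177 in PG, which stayed in. Named clusters led by stress genes (*Atf3*, *Fos*), interferon genes (*Cxcl10*) or cell cycle genes (*Top2a*, *Cenpf*) kept their names. Clusters led by cell cycle genes held 228 of the 1896 basal-like barcodes of skin and 287 of the 1311 of PG. Promoters came from RefSeq, where 7 of the 10 keratins had an entry. The genes named were the 10 members, the most abundant genes of the fixed lists, and the genes most like each member over clusters. The members and the lists were chosen with earlier results of these data known. The statistics were tested on simulated data. Python 3.11.15, numpy 2.4.6, scipy 1.17.1 and pandas 2.3.3 were used.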

Additional observations from a re-analysis of the deposited data

Results flagged for a closer look

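*Krt14* differed in direction between the tissues when the upper follicle-like barcodes were set against the basal-like ones. The log2 difference was −2.86 in skin, with 1265 against 9174 CPM, and 1.24 in PG, with 4114 against 1744 CPM. The difference between the tissues was not tested, since each had 1 library, and the class rested on different clusters in skin and PG.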

How the results depend on the processing

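No paired analysis was possible because each tissue had 1 library and no result came from a test. The basal sum (log2 PG over skin, −1.55 over all barcodes and −1.54 in keratinocyte-like ones) was, in that order, −1.47 and −1.51 under stricter filters, −1.58 and −1.58 at 5% mitochondrial UMIs, −1.57 and −1.57 without keratins in the total, −1.47 and −1.47 without mitochondrial and ribosomal genes, −1.60 and −1.59 as a mean over barcodes, and −1.57 and −1.56 with free RNA taken off. It was −1.52 over all barcodes without doublets, and in keratinocyte-like ones −1.58 without the highest 1% of barcodes, −1.60 and −1.48 at coarser and finer clustering, and −1.99 with basal-like and suprabasal-like clusters alone. The suprabasal sum (−7.30 and −7.39) was −7.43 over all barcodes under stricter filters, −7.14 and −7.23 without the highest 1%, −7.15 and −7.23 at 5% mitochondrial UMIs, −6.99 and −7.19 as a mean over barcodes, and −8.44 with basal-like and suprabasal-like clusters alone. The values of −1.99 and −8.44 are not like for like, since no PG cluster was named suprabasal-like and the PG side was basal-like barcodes only. The share of *Krt10* barcodes with *Krt14* (42.9% in skin, 66.7% in PG) was 45.0% in skin at 5% mitochondrial UMIs, 17.6% in skin at 3 UMIs, where PG gave no value, 76.8% in PG under stricter filters, 55.4% and 88.8% without thinning, and 51.8% and 92.6% after thinning to 2000 UMIs. *Krt79* (0.21) reversed to −0.26 as a mean over barcodes and to −0.0506 with free RNA taken off, and 70 of the 72 alternatives for single keratins kept their direction. The 10 keratins in free RNA moved from 9065 to 11728 CPM in skin when barcodes of 1 to 50 UMIs were used. In PG they moved from 1874 to 1959 CPM. In PG, *Krt77*, *Krt78* and *Krt2* rest on 3 UMIs or fewer, which limits their folds.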
